A study of Caenorhabditis briggsae with 12 samples.

Results

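Caenorhabditis briggsae is a nematode of the same genus as C. elegans whose hermaphrodites fertilise themselves, and AF16 is its standard wild-type strain. Its hermaphrodites make sperm first and oocytes afterwards, so the supply of their own sperm limits how long a hermaphrodite that has not mated can reproduce. In C. elegans, egg production then ends and the adult lives on for a post-reproductive period, in which the germ line and other tissues decline. The comparison described here set the oldest adults of the series against the youngest: 3 libraries from AF16 hermaphrodites on day 9 of adulthood against 3 from day 1, or 6 of the 12 libraries. The other 6 libraries, from days 3 and 6, were used only to show where a group of genes stood between these ages.

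Both groups were whole hermaphrodites of the same wild-type genotype with no treatment, and age is the only difference that the labels give. They had grown at 20 °C on E. coli OP50 and were synchronised by bleaching. Larvae were washed off by settling every second day and the remainder picked away. Older adults would have gone through more of this removal, so such handling, and any larvae left, cannot be told apart from age. RNA from a whole animal mixes all tissues, so fewer cells of a type and less RNA per cell cannot be told apart. The library totals were 14276540, 31861634 and 25821051 counts in replicates 1, 2 and 3 of day 9, and 29696676 to 33732477 counts at day 1. Levels are given as CPM, counts per library total scaled by TMM factors. With 3 counts as the limit for a count of 0, which covers counting error only, a level of 0.217 CPM could go unseen in replicate 1 of day 9, and one of 0.0881 to 0.112 CPM in the other 5 libraries. The file gives WBGene identifiers without names, and 0 of the 23169 matched the reference table used here, so genes are described in groups and a few by identifier, without functions, and the labelled tissue was not checked against marker genes.

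The day 9 libraries did not resemble each other closely, which shapes every result that follows. Across genes, log2 CPM of replicates 2 and 3 of day 9 correlated at r = 0.994, and that of replicate 1 at 0.832 with replicate 2 and 0.809 with replicate 3; the day 1 pairs stood at 0.994 to 0.995. Replicates 2 and 3 correlated with the day 1 libraries at 0.934 to 0.937, and replicate 1 at 0.794 to 0.803. The coefficients run across genes, which are no independent replicates, and serve as a description. Replicate 1 also had the fewest counts of the 6, and the part of depth in its position was not tested.

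Compared with the day 1 mean, each library of day 9 had its own balance of high and low genes. In replicate 1, 2030 genes were at least 2-fold higher and 4641 at least 2-fold lower, 42.9% of the 15546 genes tested. In replicate 2 the numbers were 1826 and 1377, and in replicate 3 they were 1896 and 1257, 20.6% and 20.3% of the genes. The excess of low genes was thus seen in replicate 1, while replicates 2 and 3 had more high genes than low ones. All 3 libraries were at least 2-fold higher for 442 genes and at least 2-fold lower for 1027. Replicates 2 and 3 were at least 2-fold higher while replicate 1 was at least 2-fold lower for 733 genes, and the reverse held for 7.

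Placing each day 9 library above, within or below the 3 day 1 libraries sorted the genes further. All 3 day 9 libraries lay above day 1 for 2445 genes (15.7% of those tested) and below day 1 for 2907 (18.7%), together 34.4%. For 2950 genes, or 19.0%, replicate 1 lay below day 1 and replicates 2 and 3 above it. For 1789 genes, or 11.5%, replicate 1 lay above day 1 and replicates 2 and 3 below it. The remaining 5455 genes, 35.1%, had other arrangements, and in 171 of them no day 9 library left the range of day 1. That range was narrow, with a median SD of log2 CPM of 0.53 at day 9 and 0.10 at day 1, so a small difference was enough to leave it.

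**Figure D1:**
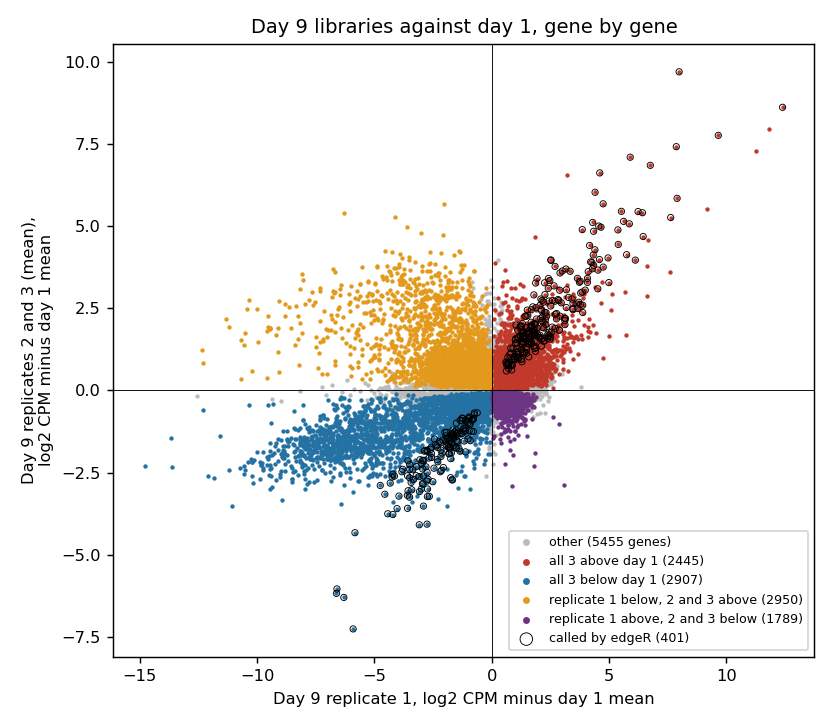
Each point is 1 of the 15546 genes tested, placed by its log2 CPM minus the day 1 mean in day 9 replicate 1 (horizontal) and in the mean of day 9 replicates 2 and 3 (vertical). Colours mark the arrangement of the 3 day 9 libraries around day 1. Rings mark the 401 genes called by edgeR, in the upper right (246 higher) and lower left (155 lower), most but not all of them near the diagonal.

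Within the one-sided groups the day 9 libraries did not always match in size. For the 2445 genes above day 1, the median log2 ratio to the day 1 mean was 0.87, 0.61 and 0.56 in replicates 1, 2 and 3. For the 2907 genes below day 1 it was -2.13, -0.88 and -0.75. Among these lower genes, replicate 1 was at least 2-fold below both other day 9 libraries for 1488, or 51.2%, where 31.9% of all tested genes showed this. Among the higher genes, replicate 1 was at least 2-fold above both others for 296, or 12.1%, where 8.57% of all tested genes did. For the 2907 genes below day 1, the lower quartile of the log2 ratios was -5.04 in replicate 1, -1.60 in replicate 2 and -1.41 in replicate 3. In the plot of ratios the genes below day 1 form a wide arm to the left that stays shallow on the vertical axis.

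Most one-sided genes cleared day 1 by little. The distance between the nearest day 9 and day 1 libraries had a median of 0.25 on the log2 scale for the higher genes and 0.49 for the lower genes. It was at most 0.1 for 623 higher genes (25.5%) and 517 lower genes (17.8%). It was at least 1, a clear 2-fold, for 303 higher genes (12.4%) and 906 lower genes (31.2%). A distance of at least 3 was seen for 42 higher and 10 lower genes.

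The test across genes called few of these changes. edgeR's quasi-likelihood test on the 6 libraries, at a Benjamini-Hochberg adjusted p under 0.05, called 401 genes (2.58% of those tested), of which 246 were higher (1.58%) and 155 lower (0.997%) at day 9. All 401 were one-sided, and 206 of the 246 and 128 of the 155 cleared day 1 by at least 2-fold. The log2 fold changes had a median of 2.07 for the higher and -1.98 for the lower genes, against 0.13 over all genes tested, and ran up to 13.43 upward and 10.31 in size downward. A fold change of at least 4 was fitted for 127 higher and 76 lower genes. DESeq2, which scales by median of ratios and gave 18254 genes an adjusted p, called 863 higher and 902 lower genes, 48.9% higher in place of 61.4%. With median-of-ratios factors edgeR called 208 higher and 168 lower genes, 55.3% higher. What the other differences between the tools contribute was not tested.

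The calls were lost, all or nearly all, without any 1 library other than replicate 1 of day 9. Without replicate 1, 2 or 3 of day 1, edgeR called 1, 0 and 0 genes (1572 to 1605 at an unadjusted p under 0.05). Without replicate 2 or 3 of day 9 it called 0 and 12 (with 1931 and 2670 genes at an unadjusted p under 0.05). Without replicate 1 of day 9 it called 4680 higher and 3978 lower genes, which include all 401. A fit with 1 library fewer also has less to estimate the spread from, and the part of this in the losses was not tested. All 401 fold changes kept their sign in these fits, but their one-sided arrangement all but fixes the sign, so this is no check of the calls.

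For most called genes the 3 day 9 libraries matched in size. The median log2 ratio to day 1 of the called higher genes was 2.08, 1.99 and 1.97 in replicates 1, 2 and 3. That of the called lower genes was -2.12, -1.92 and -1.83. The day 9 libraries lay within 2-fold of each other for 196 of the 246 higher genes (79.7%). They did so for 123 of the 155 lower genes (79.4%), against 50.7% of all tested genes. Of all one-sided genes, called or not, 77.2% of the higher and 42.9% of the lower did so. The called higher genes were thus near their whole one-sided group in this, and the called lower genes were not. The match in size is part of what the test rewards, since it sets the mean change against the spread, and it is given as a description. Among the 2752 one-sided lower genes that were not called, the medians were -2.13, -0.80 and -0.68, so replicate 1 stood as far from day 1 as for the called genes and replicates 2 and 3 did not.

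Called genes were found at all levels. Of the 125 tested genes with a mean of 1000 CPM or more over the 6 libraries, 1 was called higher (0.80%, against 1.58% of all tested genes) and 9 were called lower (7.20%, against 0.997%). Of the 2080 genes at 100 to 1000 CPM, 21 were called higher (1.01%) and 16 lower (0.769%). The called higher genes held 1.81%, 1.63% and 1.67% of the counts in replicates 1, 2 and 3 of day 9, against 0.596%, 0.645% and 0.622% at day 1. The called lower genes held 3.27%, 3.63% and 3.64% of the counts at day 9, against 8.37%, 8.38% and 8.66% at day 1. For both groups the days did not overlap, and the 3 day 9 libraries stood close together; the genes were chosen on these libraries.

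The whole one-sided groups held larger and less even shares. The 2907 lower genes took 14.5% ± 2.76 of all counts on day 9 and 28.0% ± 0.16 on day 1 (SD over 3 libraries each). The 2445 higher genes took 15.1% ± 2.92 at day 9 and 9.12% ± 0.081 at day 1. In the lower genes replicate 1 held 11.4%, below the 15.7% and 16.5% of replicates 2 and 3. In the higher genes it held 18.5%, above their 13.8% and 13.1%.

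**Figure D2:**
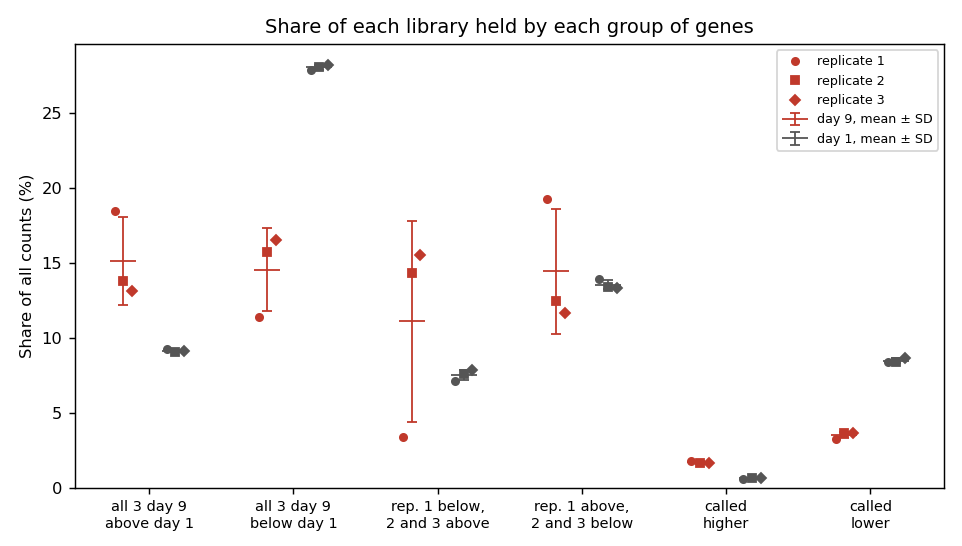
Share of all counts in a library (percent) held by 6 groups of genes, with each day 9 library (red) left of each day 1 library (grey) as a point and the mean ± SD as bars (n = 3 each). The called groups, chosen on these libraries, show 3 close day 9 points, from 1.63% to 1.81% for the higher and 3.27% to 3.64% for the lower genes. In the split groups replicate 1 of day 9 stands apart from replicates 2 and 3, which is how these groups were defined.

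The day 9 libraries split 4739 genes, or 30.5% of those tested. Of these 0 were called, against 2.58% of all tested genes. The test sets the mean change against the spread, so a split gene could hardly be called. In the 2950 genes with replicate 1 below day 1, the median log2 ratio was -1.24 in replicate 1 and 0.66 and 0.75 in replicates 2 and 3. Replicate 1 was at least 2-fold lower for 58.6% of them, and replicates 2 and 3 at least 2-fold higher for 32.7% and 36.4%. They held 3.41% of the counts in replicate 1, 14.3% and 15.5% in replicates 2 and 3, and 7.14% to 7.83% at day 1. In the 1789 genes with replicate 1 above day 1 the changes were smaller, with median log2 ratios of 0.52 in replicate 1 and -0.21 and -0.30 in replicates 2 and 3. They held 19.2% of the counts in replicate 1, 12.4% and 11.6% in replicates 2 and 3, and 13.3% to 13.9% at day 1. The fitted log2 fold change over all 3 day 9 libraries had a median of 0.36 in the genes with replicate 1 below and 0.04 in those with it above.

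The split groups also differed in level. Their median level at day 1 was 5.35 CPM where replicate 1 was below and 49.6 CPM where it was above, against 11.7 CPM over all tested genes. Of the 5335 genes with a mean of 1 to 10 CPM, 26.6% had replicate 1 below and 3.36% had it above. Of the 2080 genes with a mean of 100 to 1000 CPM, 7.89% had replicate 1 below and 18.9% had it above. One-sided genes varied less with level, from 9.60% to 16.6% above day 1 and from 15.9% to 24.8% below it. The share below day 1 was highest among the 125 genes with a mean of 1000 CPM or more, of which 31 lay below and 12 above.

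**Figure D3:**
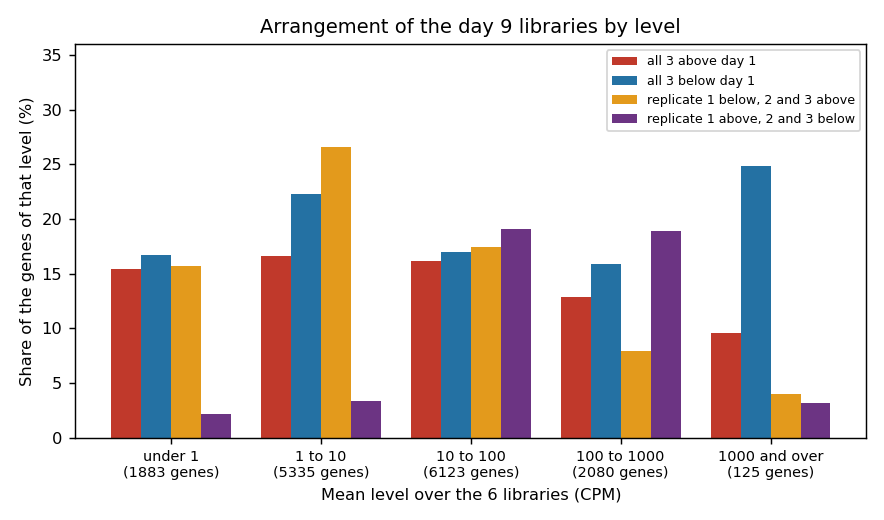
Share of genes (percent) with each of 4 arrangements of the day 9 libraries around day 1, for genes grouped by their mean level over the 6 libraries in CPM. Splits with replicate 1 below are most frequent at 1 to 10 CPM (26.6%), splits with replicate 1 above at 10 to 100 CPM (19.1%), and the share below day 1 is highest at 1000 CPM and over (24.8%).

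A part of the transcripts was absent from the counts of replicate 1 of day 9 alone. At 1 CPM or more in all other 5 libraries, 405 genes had 0 counts in replicate 1, while 0 genes did so in replicate 2 or in replicate 3. Their median level was 3.79 and 4.53 CPM in the other two libraries of day 9, and 7.23, 7.99 and 7.77 CPM in the day 1 libraries. Of these genes, 56 stood at 10 CPM or more in each of the other 5 libraries, with medians of 71.7 and 86.9 CPM in the other two libraries of day 9 and 50.4 to 55.6 CPM at day 1. The limit of 0.217 CPM for a count of 0 in replicate 1 lies far below these levels. On the days between, the medians of the 405 genes were 0.128 to 0.646 CPM in the day 3 libraries and 0.0821 to 0.0976 CPM in those of day 6. These genes were picked for a count of 0 in replicate 1 of day 9, and their medians were thus low on days 3 and 6 too. Whether replicate 1 was low for genes low on days 3 and 6 in general was not examined.

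The levels on days 3 and 6, which share the day 1 libraries as their base, show where each group stood between the 2 ages. For the called higher genes (244 of 246 with a count at day 1) the median level was 190.1% to 207% of its day 1 mean across the libraries of day 3, 307% to 337% in those of day 6, and 447%, 410% and 407% in the 3 day 9 libraries. For the 155 called lower genes it was 47.8% to 52.5% on day 3, then 29.8% to 30.7% on day 6, and 21.9%, 25.5% and 27.1% in the 3 day 9 libraries. In both groups the medians lay farther from day 1 at each later age. The genes were called on the day 9 values, which favours day 9 lying farthest out and its libraries standing together, so this order is a description. Over all tested genes the medians lay between 98.4% and 100.5% on day 3 and between 93.7% and 96.9% on day 6, and the 3 day 9 libraries had 91.0%, 104.6% and 101.1%.

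The other groups did not follow one course in all day 9 libraries. The one-sided lower genes that were not called stood at 34.3% to 37.4% at day 3 and 25.9% to 28.8% at day 6, then at 20.9% in replicate 1 of day 9 but at 56.1% and 60.9% in replicates 2 and 3. The genes with replicate 1 below day 1 and the others above stood at 65.8% to 68.0% at day 3 and 42.1% to 55.7% at day 6. They were at 39.9% in replicate 1 of day 9 and at 158.9% and 169.6% in replicates 2 and 3. The genes with replicate 1 above day 1 and the others below stood at 148.2% to 153.2% at day 3 and 144.2% to 147.0% at day 6, then at 141.4% in replicate 1 and 86.5% and 81.2% in replicates 2 and 3. By definition, the split genes have replicate 1 on the other side of day 1 from replicates 2 and 3. The test that left the lower genes uncalled penalises spread among the day 9 libraries. How the day 9 libraries lay to each other is thus a description. In each of these 3 groups replicate 1 lay close to day 6. Replicates 2 and 3 lay nearer to day 1 than replicate 1 did, or on its other side. The one-sided higher genes that were not called differed from this: they stood at 139.7% to 142.1% at day 3 and 145.8% to 151.5% at day 6, then at 173.5% in replicate 1 of day 9 and at 146.9% and 139.7% in replicates 2 and 3, so here replicates 2 and 3 lay close to day 6 and replicate 1 beyond it.

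**Figure D4:**
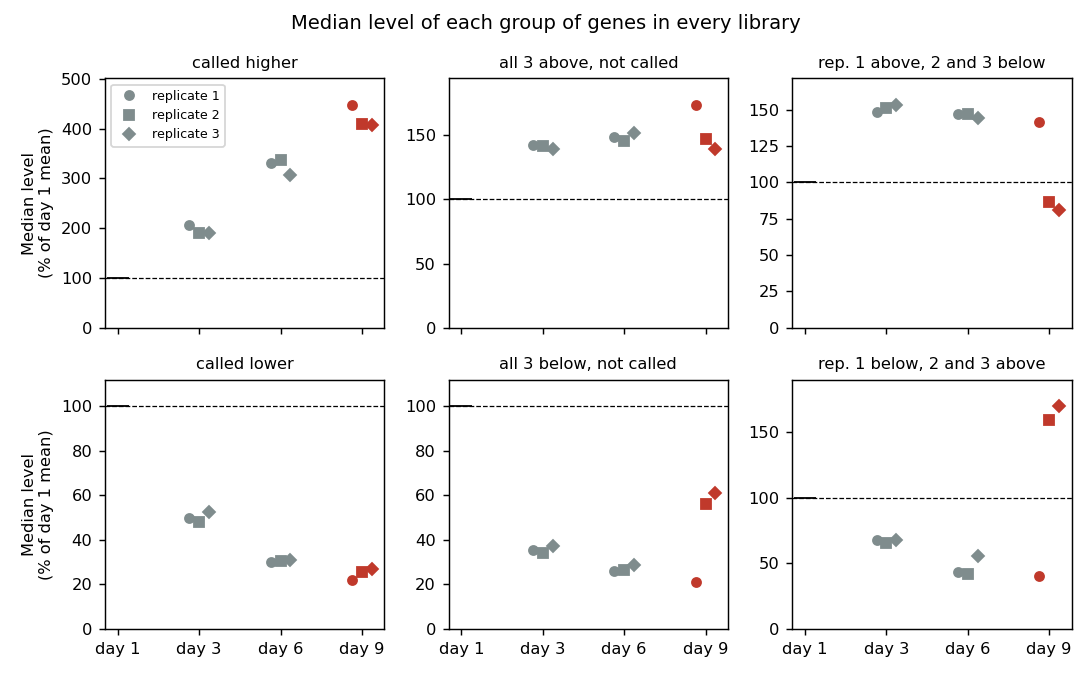
Median level of 6 groups of genes in each library of days 3, 6 and 9 as a percentage of the day 1 mean (dashed line at 100%). The called groups were chosen on the day 9 values. Their 3 day 9 libraries stand together beyond day 6, at 407% to 447% for the higher and 21.9% to 27.1% for the lower genes. In the other groups replicate 1 of day 9 stands apart from replicates 2 and 3, least so for the higher genes that were not called. The split groups were defined by this, and the test that left the others uncalled penalises such spread.

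Leaving replicate 1 of day 9 out and then looking at where it lay showed a library that the calls had not used. Of the 4680 genes called higher without it, 4474 could be placed, and replicate 1 lay above day 1 for 40.8% and below for 51.6%. Over all 15546 tested genes it lay above for 42.8% and below for 49.5%, so the place of replicate 1 for the genes called higher was near its place for genes in general. Of the 3978 genes called lower without it, 3932 could be placed, and replicate 1 lay below day 1 for 62.8% and above for 33.1%. All these positions share the day 1 libraries, and the difference between rises and falls was not tested.

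The reverse was also looked at, with replicate 1 as the only library of day 9 and its spread taken from day 1. The fit then had 4944 genes called higher and 6359 lower. Replicates 2 and 3 both lay above day 1 for 35.6% of the higher genes and both below for 26.6%, against 37.8% and 31.5% of all tested genes. Of the genes called lower, both lay below for 41.5% and above for 36.98%.

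Among called one-sided genes that reached 10 CPM on the day when they were higher (126 higher and 74 lower), those that cleared day 1 by the widest distance are given with their values in each library. WBGene00024465 had levels of 442.1, 30.4 and 34.6 CPM in the 3 day 9 libraries (replicates 1, 2 and 3), against 0, 0 and 0.0344 CPM at day 1. All 3 day 9 libraries lay far above day 1, and replicate 1 lay far above the other two. Its 8046 counts at day 9 faced 1 count at day 1, a ratio of the pooled levels of 10090 with an exact 95% interval of 1810 to 398500, which covers counting error only. The fitted log2 fold change was 13.43 ± 2.09 (SE), with edgeR's adjusted p at 0.0408, and the fold change was 11.07 on that scale without replicate 1 of day 9. Without replicate 3 of day 1, which holds its 1 day 1 count, it was 15.18, a fit against 0 counts and so no bound, and was not called (edgeR adjusted p of 0.321). limma-voom did not call it (adjusted p of 0.0952), and DESeq2 gave it no adjusted p. On the days between it stood at 0 to 0.0425 CPM at day 3 and 0.228 to 2.91 CPM at day 6.

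WBGene00028725 showed the opposite order among the day 9 libraries. Its levels were 71.6, 225.1 and 248.7 CPM in the 3 day 9 libraries, against 0.264, 0.170 and 0.206 CPM at day 1. Its nearest libraries of the 2 days differed by 7.74 on the log2 scale. The log2 fold change was 9.70 ± 0.70 (SE), with edgeR's adjusted p at 0.0102. It had stood at 1.41 to 1.79 CPM at day 3 and at 1.56 to 3.06 CPM at day 6, so most of its increase came after day 6 in all 3 day 9 libraries.

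WBGene00037431 was nearly lost at day 9. Its levels were 0.868, 0.661 and 0.112 CPM in the 3 day 9 libraries, against 45.0, 58.7 and 68.0 CPM at day 1. All day 9 libraries were below day 1, the nearest by 5.58 on the log2 scale. The log2 fold change was -6.75 ± 0.74 (SE), with edgeR's adjusted p at 0.0221. It was still at 43.2 to 57.9 CPM at day 3 and at 13.9 to 15.5 CPM at day 6. With quality weights by day, which let day 9 vary more than day 1, limma-voom did not call it (adjusted p of 0.125).

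WBGene00041295 had the most even fall of the 4 genes. Its levels were 10.1, 12.4 and 14.5 CPM in the 3 day 9 libraries, against 122.0, 123.1 and 125.3 CPM at day 1. The 3 libraries of each day lay close together and far from those of the other day. The log2 fold change was -3.32 ± 0.18 (SE), with edgeR's adjusted p at 0.0065. The level was 41.2 to 53.6 CPM at day 3 and 23.9 to 26.5 CPM at day 6.

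Each of these calls was lost without any 1 day 1 library or without replicate 2 of day 9. The calls of WBGene00024465 and WBGene00028725 were also lost without replicate 3 of day 9. The lowest edgeR adjusted p among these losses was 0.052 and the highest 0.321. The fold changes kept their direction, which their one-sided arrangement all but fixes.

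Of the split genes with a level of at least 10 CPM, the widest split in each direction is given. WBGene00029604 had 0 counts in replicate 1 of day 9 and reached 219.2 and 267.8 CPM in the other two, against 4.05, 7.99 and 5.36 CPM at day 1. Replicate 1 thus showed no reads where the other two were far above day 1. Its mean level was 162.3 ± 142.7 CPM at day 9 and 5.80 ± 2.002 CPM at day 1 (SD, n = 3 each). The fitted log2 fold change of 4.81 ± 2.01 (SE) was not called (edgeR adjusted p of 0.293). Without replicate 1 of day 9 it was 5.38 and called, with an edgeR adjusted p of 7.2e-07, and limma-voom put it at 2.16 with an adjusted p of 0.802. It was uneven on other days too, at 2.14, 3.40 and 33.7 CPM in the 3 libraries of day 3 and 0.164, 0.174 and 35.2 CPM in those of day 6, with replicate 3 the high one.

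WBGene00034968 was split the other way. Replicate 1 of day 9 had 29.9 CPM while the others had 0.481 and 0.337 CPM, against 3.47, 3.70 and 3.13 CPM in the day 1 libraries. The fitted log2 fold change of 1.56 ± 1.64 (SE) was not called (edgeR adjusted p of 0.629), and without replicate 1 of day 9 it was -3.06 with an adjusted p of 3.2e-07. It stood at 1.71 to 3.74 CPM at day 3 and at 7.999, 7.29 and 1.40 CPM in the 3 libraries of day 6.

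**Figure D5:**
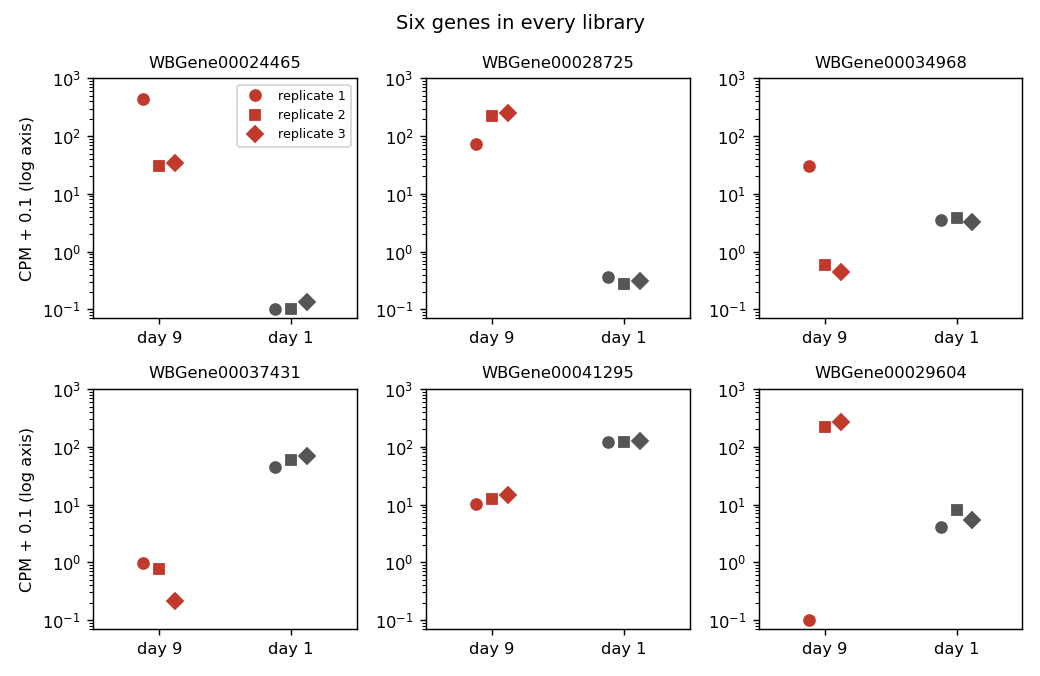
Levels of 6 genes in each day 9 library (red) and each day 1 library (grey), as CPM with 0.1 added, on a log axis. In the 4 called genes (2 left columns) no day 9 point overlaps day 1, while in WBGene00034968 and WBGene00029604 (right column) replicate 1 of day 9 lies on the other side of day 1 from replicates 2 and 3.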

How the data were processed

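The authors deposited raw counts per gene, 1 column per library, not normalised. The submitters' processing notes name STAR, featureCounts and MultiQC; tool versions, assembly, gene models and strandedness are not given in the sources, so single genes that overlap or have near-identical copies are uncertain. Days and replicates came from the titles. No label says that replicates were separate cultures, so p-values reflect the spread between samples that may be technical repeats. Within a day, each pair of libraries differed by more than sampling noise (chi-square over its degrees of freedom from 4.95 to 309.8), and none was merged.

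The 6 libraries were fitted in edgeR 4.0.16 (R 4.3.3) with filterByExpr (15546 of 23169 genes), TMM factors, 1 mean per day and robust quasi-likelihood tests (4 residual degrees of freedom), Benjamini-Hochberg adjusted p under 0.05. The SE is the fold change divided by the square root of F. Positions around day 1 used log2 CPM with a prior count of 2. Levels on days 3 and 6 used TMM factors over all 12 libraries. Alternatives used DESeq2 1.42.0 and limma 3.58.1. The test was also run on simulated counts, which gave both days the same spread for each gene. They do not cover a day 9 that varies more than day 1, as in these data. Genes were named by the widest distance between the nearest libraries of the 2 days among called one-sided genes of at least 10 CPM (2 higher, 2 lower), plus the widest split each way. The comparison, groups and lists were chosen with earlier results of these data known; the genes absent from replicate 1 alone were picked after seeing the data. Of 22727 reference genes, 0 matched an identifier, so lists of marker genes were not used.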

Additional observations from a re-analysis of the deposited data

How the results depend on the processing

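The counts of called genes depended on the libraries and the tool. In place of 246 higher and 155 lower genes, there were 140 and 76 with no low-count filter, 863 and 902 with DESeq2, and 1088 and 742 with all 12 libraries in the fit. Leaving out 1 library gave 0 to 4680 higher and 0 to 3978 lower genes, both upper values without replicate 1 of day 9. With replicate 1 as the lone day 9 library there were 4944 and 6359, and limma-voom with quality weights by day left 68 lower genes; both settings were added after seeing the data. The fit with the replicate number as a block called 0 higher and 0 lower genes (1757 at an unadjusted p under 0.05). It had 2 residual degrees of freedom against 4 in the main fit, and the part of this in the loss of calls was not tested. Same-numbered libraries deviated together at r = 0.19, 0.043 and 0.117, and the other pairs ran from -0.207 to 0.121. Replicates 1 and 3 of day 9 correlated best with the day 1 library of their own number, and replicate 2 with replicate 3 (0.121). These small values do not settle whether the numbers pair the samples, and the main fit took the libraries as unpaired. The cause of the changes in the counts of called genes was not tested. All 401 fold changes kept their sign when 1 library was left out, under both other scalings and with the block. Their one-sided arrangement all but fixes that sign. The balance of one-sided genes moved with the scaling. With TMM factors 2445 lay above and 2907 below day 1 (45.7% above). With median-of-ratios factors these were 2080 and 3201 (39.4% above), and with upper-quartile scaling 2139 and 3214 (40.0% above). One-sided genes numbered 5891 above and 5275 below day 1 without replicate 1 of day 9, against 2674 and 3164 without replicate 2 and 3082 and 3918 without replicate 3. Leaving out 1 day 1 library gave 2716 to 2836 above, 3111 to 3358 below and 5323 to 5401 split genes; a split is defined only with all 3 day 9 libraries. The log2 fold change of WBGene00034968 turned to -1.37 with limma-voom, -1.44 with the replicate block, -1.56 with quality weights and -3.06 without replicate 1 of day 9 (up to 2.12 without other single libraries), and that of WBGene00029604 to -10.27 with replicate 1 alone, a fit to 0 counts and so no bound. The depth of replicate 1 of day 9 limits what can be said of genes under 0.217 CPM there.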
